A study of Mus musculus with 2 samples.

Results

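The 41 genes described here are induced in most cells by type I interferon. They were chosen by name from the genes of antiviral defence, and a gene counted as measured where at least 1 probe set of the array carried its symbol and no other. Where a gene had several, the brightest of them on average was used. This gave values for 39 of the 41 genes, out of 22180 genes measured in the same way on 41345 probe sets. Oas1a shared its probe set with its paralogue Oas1g and Ifi44 had no entry in the platform annotation used here, so neither has a value. Of the 39 genes, Ifi35 and Sp100 had further probe sets of their own.

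Spleen cells from Fx-/- mice were measured on 2 Affymetrix whole-transcript arrays, 1 for each of the 2 groups. Fx, now named Gfus, encodes an enzyme that makes GDP-fucose from mannose, so that animals without it rely on fucose from outside. The on-fucose array held cells of Fx-/- mice that were fucose-treated, and the off-fucose array held cells of Fx-/- mice with no fucose treatment, so both groups are labelled with the deletion and there was no array of wild-type cells in the comparison. The cells were labelled as type 1 conventional dendritic cells (cDC1), obtained by bead depletion with B220 and CD11b antibodies and then bead selection for CD11c, and 9 ng of total RNA entered the labelling. For neither array do the labels state the strain, age, sex or number of mice, nor the dose and duration of fucose. With 1 array per group there was no replicate check, and the number of arrays limits the precision of every difference below.

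Type I interferons bind a receptor made of Ifnar1 and Ifnar2, which act through the kinases Jak1 and Tyk2. The transcription factor complex ISGF3, which contains Stat2 and Irf9, then binds the interferon-stimulated response element (ISRE) in the promoters of its target genes. Many of the products sense or degrade viral RNA, and some of them, such as Stat2, Irf7, Irf9 and Usp18, act back on the pathway itself. Immune cells also keep a low level of this programme without infection, through small amounts of interferon in the tissue.

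The ISRE is the element that ISGF3 binds, and examples of it are shown for members with lower values off fucose and for members without. The motif searched on both strands was its core, GAAA followed by any 2 bases and another GAAA, which reads as TTTC on both sides of the gap on the opposite strand. The window ran from 250 bases before to 50 bases after each start site of the RefSeq promoter table (GRCm38.p6), which matched 31 of the 41 genes. The core was present for 13 of these 31 genes (41.9%), against 1079 of 27025 genes of the whole table (3.99%). The stretches below lie before the start site, run 5′ to 3′ on the gene's strand, and have each core in capitals, with overlapping cores joined into a longer run of capitals. The first 5 belong to genes with lower values off fucose, the next pair to genes with values close together on both arrays, and the last to a gene with a higher value off fucose.
Stat2, chr10:128270261-128270300, + strand: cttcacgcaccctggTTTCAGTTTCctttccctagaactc
Oas3, chr5:120777710-120777749, - strand: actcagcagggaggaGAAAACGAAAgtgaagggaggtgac
Ifit3, chr19:34583358-34583431, + strand: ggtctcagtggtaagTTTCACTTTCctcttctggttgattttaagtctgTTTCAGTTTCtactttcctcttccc
Isg15, chr4:156200860-156200911, - strand: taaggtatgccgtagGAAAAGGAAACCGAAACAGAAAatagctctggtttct
Ifit1, chr19:34640770-34640828, + strand: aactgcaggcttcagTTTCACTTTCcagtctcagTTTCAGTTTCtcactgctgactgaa
Bst2, chr8:71537572-71537617, - strand: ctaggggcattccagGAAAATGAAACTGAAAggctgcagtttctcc
Rsad2, chr12:26456548-26456587, - strand: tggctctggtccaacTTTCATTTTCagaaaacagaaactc
Trim30a, chr7:104465205-104465244, - strand: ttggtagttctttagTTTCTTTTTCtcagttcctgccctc

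The core was found in promoters of members on both sides. Among the 29 measured members with a promoter in the table, the 12 with a core had a median log2 difference (off fucose minus on fucose) of -0.44, with 10 of them negative. The 17 without a core had a median of -0.34, with 14 negative. The ranges overlapped, from -0.74 to 0.32 with a core and from -0.70 to 0.53 without. A second motif, TTC followed by any 3 bases and GAA, is the site of Stat dimers known as GAS. It is the same on both strands, and it was present for 9 of the 31 genes (29.0%) against 2582 of all 27025 (9.55%). A match of letters is a description and not a binding site.

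Most of the interferon-stimulated genes had somewhat lower values off fucose, and all of them lay within 2-fold. Of the 39 measured genes, 33 had a negative difference (84.6%), against 11100 of all 22180 genes and 57.6% of the 5844 genes nearest to the members in mean intensity. The median difference was -0.35 on the log2 scale, which is 1.27-fold lower, against -0.0008 over all genes and -0.06 over the genes of like intensity. A difference of at least 0.32 in size on the log2 scale is called a moderate difference here. In the lower direction 21 of the 39 genes passed it (53.8%), where the background was 10.5% of all genes and 17.3% of genes of like intensity. In the higher direction 2 genes passed it, Ube2l6 and Isg20 (5.13%), where these backgrounds were 9.28% and 12.0%. At least 1.5-fold lower were 6 genes (15.4%), namely Rtp4, Stat2, Ddx58, Oas3, Adar and Oas2, against 2.28% of all genes and 4.38% of genes of like intensity. No member was 1.5-fold higher, where 3.21% of all genes and 5.56% of those of like intensity were. No member was 2-fold apart either. Of all genes 0.257% were 2-fold lower and 1.20% 2-fold higher, and of genes of like intensity 0.530% and 2.26%.

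T cell genes moved in the same direction by a similar amount. All 8 measured genes of a T cell marker list had lower values off fucose, with a median of -0.29 and a range from -0.50 to -0.16, and Cd3e, which encodes a CD3 signalling subunit, had a log2 intensity of 10.97 with fucose and 10.55 without. When that median was subtracted from every difference, a setting called T cell centring here, the median of the interferon-stimulated genes was -0.05, and 21 of the 39 genes remained negative, where 12.2% of all genes were. Among genes of like intensity this share was not computed, but 17.3% of them were moderately lower as reported. By that setting 6 members were moderately lower, no member was 1.5-fold lower and 3 were 1.5-fold higher. It moved the median of all genes up by 0.29. In a bulk sample, fewer cells of a type and less RNA per cell cannot be told apart.

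**Figure D1:**
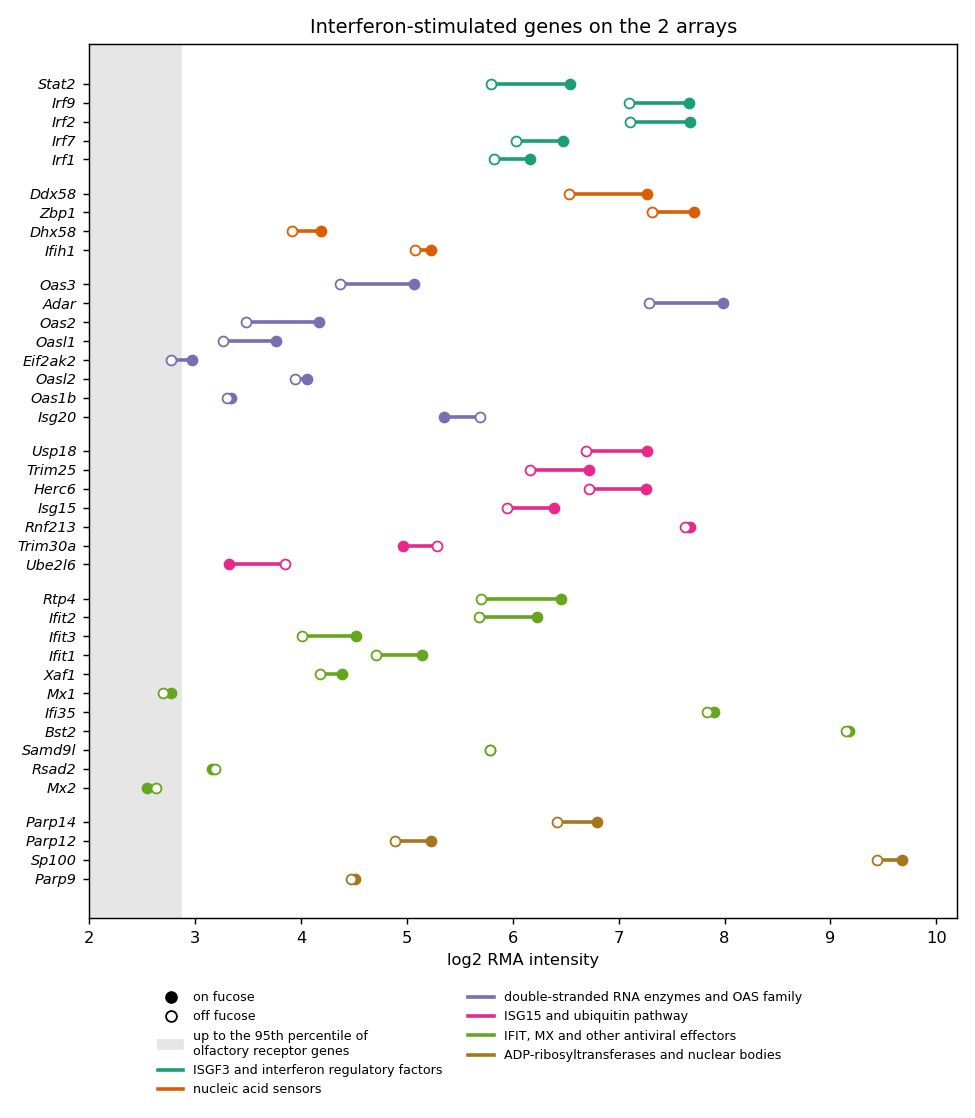
Log2 RMA intensity of the 39 measured interferon-stimulated genes on the on-fucose array (filled circles) and the off-fucose array (open circles), 1 array per group, grouped by role and ordered by difference. The open circle lies to the left of the filled circle for 33 genes, Ube2l6, Isg20 and Trim30a have the widest gaps to the right, and Mx1 and Mx2 lie within the grey range, which ends at the 95th percentile of olfactory receptor genes on the off-fucose array (2.86).

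Background was set by 1105 olfactory receptor genes, which spleen cells should not express. On the log2 scale their 95th percentile was 2.83 on the on-fucose array and 2.86 on the off-fucose array. By this limit 36 of the 39 genes were above background on both arrays. Mx1 and Mx2 were not above it on either, and the double-stranded RNA kinase gene Eif2ak2 was above it on fucose only. Over the 36 genes, 31 differences were negative and the median was -0.39.

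The transcription factors among the members had lower values off fucose in every case. All 5 genes of this group, Stat2, Irf9, Irf7, Irf1 and Irf2, had moderate lower differences, with a median of -0.56 that was -0.27, with all 5 still negative, under T cell centring. Stat2, the subunit of ISGF3 that carries its activation domain, had log2 values of 6.54 with fucose and 5.80 without (-0.74, 1.67-fold lower). Irf9, the subunit that recognises DNA, had 7.66 and 7.10 (-0.56). Both of these genes were thus lower off fucose. Irf7, which amplifies the production of interferon alpha, had 6.47 and 6.03 (-0.44). Irf1, an activator that interferon gamma also induces, had 6.16 and 5.82 (-0.34), and Irf2, which competes with Irf1 for the same sites, had 7.67 and 7.11 (-0.56). The activator and its competitor therefore shared the direction.

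Each of the 4 sensors of foreign nucleic acid had a lower value off fucose, with differences from -0.15 to -0.73, and the median of -0.33 was -0.04, with 2 of the 4 negative, under T cell centring. Ddx58, which encodes the RNA sensor RIG-I, went from 7.27 to 6.53 (-0.73, 1.66-fold lower). Zbp1, a sensor of Z-form nucleic acid that can start necroptosis, went from 7.71 to 7.32 (-0.40). Only these of the 4 passed the moderate threshold. Dhx58, which encodes the helicase LGP2 that modulates the other RNA sensors, had 4.18 and 3.91 (-0.27), and Ifih1, which encodes MDA5, had 5.23 and 5.08 (-0.15). The related sensors RIG-I and MDA5 thus differed by unequal amounts on these arrays.

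The enzymes that act on double-stranded RNA were lower off fucose in 7 of 8 genes. The 1.5-fold threshold was passed by 3, and the median was -0.35, or -0.05 with 4 negative under T cell centring. The oligoadenylate synthetases make the messenger molecule that switches on RNase L. Oas3 had 5.07 on fucose and 4.36 off fucose (-0.70, 1.63-fold lower), and its neighbour on the chromosome, Oas2, had 4.17 and 3.48 (-0.69, 1.61-fold lower). Oas1b, known for resistance to flaviviruses, had 3.34 and 3.30 (-0.04). Oasl1 and Oasl2 code for OAS-like proteins and also lie side by side, yet the arrays differed by unequal amounts for them. Oasl1 went from 3.76 to 3.27 (-0.50) and Oasl2 from 4.05 to 3.94 (-0.11). Oas1b, Oas2, Oas3, Oasl1 and Oasl2 were dim on these arrays, with log2 values averaging below 5. Low intensities understate differences, and differences of genes of like intensity also spread more widely for Oas2 and Oasl2 than for Adar. Members of this family are similar in sequence, and signal shared between their probe sets was not tested.

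Adar, which edits adenosine in double-stranded RNA and so keeps the cell's own RNA from being sensed, was among the members farthest below genes of its intensity. It went from 7.98 to 7.28 (-0.70, 1.62-fold lower). Eif2ak2, which encodes the kinase PKR that stops translation, had 2.97 and 2.77, the latter not above background, which makes it at least 1.07-fold lower. Isg20, an RNA exonuclease gene, went the other way, from 5.35 to 5.69 (0.34). It was the exception in the group.

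In the system that attaches and removes the ubiquitin-like protein ISG15, the dim gene Ube2l6 went against Isg15, Herc6 and Usp18. Usp18, the protease that removes ISG15 and also blocks the interferon receptor, went from 7.27 to 6.69 (-0.58). Herc6, the ligase that attaches ISG15 in the mouse, went from 7.26 to 6.72 (-0.54), and Isg15 itself from 6.39 to 5.95 (-0.44). Modifier, ligase and protease were thus lower off fucose. Ube2l6, the conjugating enzyme between them, went the opposite way, from 3.32 to 3.85 (0.53, 1.45-fold higher), the largest positive difference of all 39 genes. Its mean log2 intensity was only 3.58, so the contrast rests on 1 dim gene.

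Among ubiquitin ligases, Trim25, which activates RIG-I, had 6.72 and 6.16 (-0.56). Trim30a, which restrains signalling from Toll-like receptors, had 4.96 and 5.28 (0.32). Rnf213, a very large ligase of intracellular defence, had 7.68 and 7.62 (-0.05). The 7 genes of ISG15 and ubiquitin ligation had a median of -0.44, or -0.15 with 4 negative under T cell centring, and as reported 4 of them were moderately lower and 1, Ube2l6, moderately higher.

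The antiviral effectors were mixed. Of 11 measured genes 4 were moderately lower off fucose, and the median was -0.07, with the sign reversed (0.22) under T cell centring. Both of these medians were the value of Mx1, which was not above background. Over the 9 genes above background, 7 were negative and the median was -0.21. Rtp4, a chaperone of receptor trafficking with antiviral activity, had the largest negative difference of the 39 genes, from 6.45 to 5.70 (-0.75, 1.69-fold lower). The Ifit genes, whose products bind viral RNA and which lie in a cluster, were lower by similar amounts. Ifit2 went from 6.23 to 5.68 (-0.55), Ifit3 from 4.52 to 4.01 (-0.51) and Ifit1 from 5.14 to 4.71 (-0.43).

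Apart from Xaf1, the other effectors lay near 0 or had values too low to use. Bst2, which encodes the virus tether tetherin, had 9.17 on fucose and 9.15 off fucose (-0.02). Ifi35 had 7.90 and 7.84 (-0.06), and its further probe set also had -0.06. These genes, like Samd9l, a restriction factor of poxviruses with 5.79 on both arrays (0.0033), were well above background, so their small differences are not those of dim probe sets. Xaf1, a gene linked to cell death, had 4.39 and 4.18 (-0.21). Rsad2, which encodes viperin, had 3.15 and 3.19 (0.03). The dynamin-like GTPase genes were not above background on either array, with Mx1 at 2.77 and 2.70 and Mx2 at 2.54 and 2.63, so they give no usable difference.

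The ADP-ribosyltransferase genes and Sp100 had lower values off fucose by small amounts, with a median of -0.29 over 4 genes that was 0.0037, with 2 negative, under T cell centring. Parp14, which modifies proteins of cytokine signalling, went from 6.80 to 6.42 (-0.38), and Parp12, which restrains viral translation, from 5.23 to 4.88 (-0.35). Parp9, which lies near Parp14 on the chromosome, had 4.51 and 4.47 (-0.04). Sp100, a component of nuclear bodies, went from 9.67 to 9.44 (-0.23). Its probe sets did not all share that direction, since the next brightest one had -0.42 and the 2 dimmest ones, at log2 intensities of 2.35 to 3.05, had 0.20 and 0.09.

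**Figure D2:**
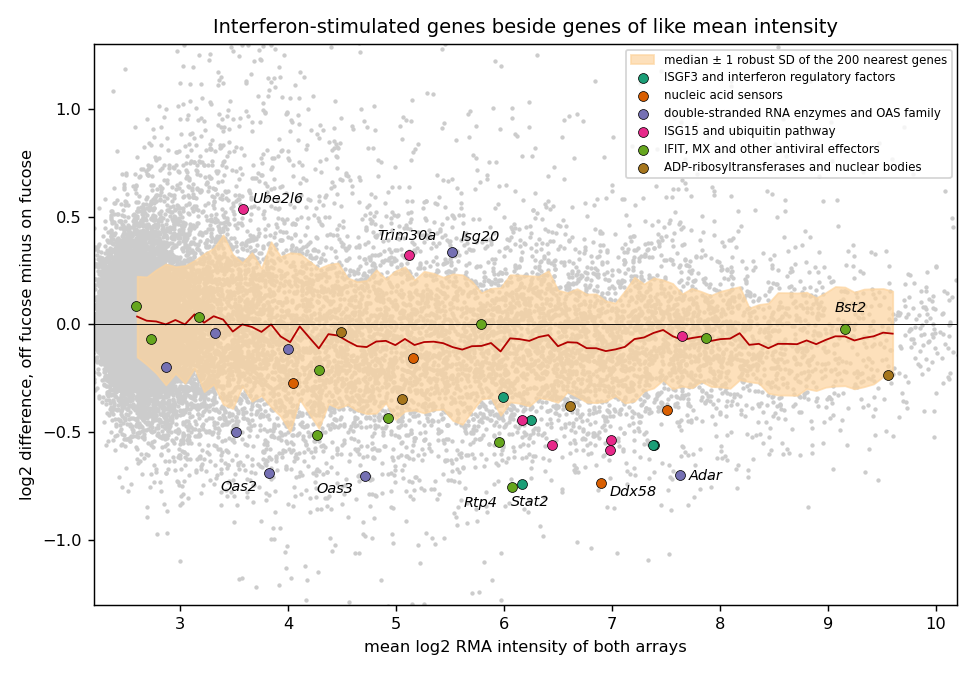
Log2 difference (off fucose minus on fucose) of the 39 measured interferon-stimulated genes against their mean log2 RMA intensity, over all other genes (grey). The red line and the shaded band are the median and 1 robust SD of the 200 nearest genes, and 19 members lie below the band and 3, Ube2l6, Isg20 and Trim30a, above it.

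Beside genes of like brightness, most members lay low. For each member the 200 genes outside the list with the nearest mean log2 intensity were taken, and their median difference ran from -0.13 to 0.03. Of the 39 members, 30 lay below the median of their own 200 genes, and the median gap was -0.28. The robust SD of these sets, a spread over genes and not over replicates, ran from 0.17 to 0.40. By that measure 19 members lay more than 1 robust SD below the median of genes like them and 3 lay more than 1 above. More than 2 below were 7 members and none was 2 above. Only 2 of the 200 like genes had a lower difference than Rtp4, Ddx58 or Adar, and 3 had a lower one than Stat2. These ranks describe 2 arrays and are not a test.

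The brighter members had a more negative median difference than the dimmer members. The 24 members whose log2 values averaged 5 or more had a median of -0.42, with 21 negative. All 5124 genes of that brightness had a median of -0.08, with 61.5% negative. The 15 dimmer members had a median of -0.20, with 12 negative. Single dimmer members also had large differences, such as Oas3 (-0.70), Oas2 (-0.69) and, in the higher direction, Ube2l6 (0.53). Over all dimmer genes, the median and the negative share were not computed.

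Most genes of the receptors and their kinases had small differences, but Ifnar1 and Il10rb were moderately lower and Ifngr1 and Stat5a moderately higher. Of 14 measured genes of interferon receptors and JAK-STAT signalling, 10 were negative (71.4%), with a median of -0.15, but 0.14 under T cell centring. In each direction 2 passed the moderate threshold (14.3%). Of the genes nearest to the members in mean intensity, 57.6% were negative, 17.3% moderately lower and 12.0% moderately higher, so the moderate counts were near that background. Ifnar1, a chain of the type I receptor, had 7.83 on fucose and 7.37 off fucose (-0.45), while its partner Ifnar2 had 8.24 and 8.17 (-0.07). The kinases of that receptor were close to this, with Jak1 at 10.51 and 10.33 (-0.17) and Tyk2 at 6.51 and 6.27 (-0.23). Among the kinases and the shared receptor chain, Jak2 had -0.27 and Il10rb, which also serves interferon lambda, had -0.40.

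The receptor for interferon gamma did not share the direction of Ifnar1. Its ligand-binding chain Ifngr1 went from 8.28 to 8.78 (0.50), and Ifngr2 had 6.65 and 6.74 (0.09). Ifnlr1, the specific chain for interferon lambda, was not above background on either array. The other Stat genes ran from -0.28 in Stat4 to 0.44 in Stat5a, with Stat3 at -0.10, Stat5b at -0.12 and Stat6 at -0.22. Of the interferon regulatory factors outside the 41 genes, Irf3, which starts interferon production, went from 6.25 to 5.88 (-0.37) and Irf4 had 0.09. Irf8, a factor of dendritic cells and other myeloid cells, went from 4.18 to 6.68 (2.50), and its dimmer probe set had 0.21. The Irf2-binding protein genes Irf2bp1, Irf2bp2 and Irf2bpl had -0.37, 0.03 and -0.35.

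Of 18 measured interferon genes, 9 were above background on at least 1 array. The median difference was 0.12 over the 18, and 0.41 over the 18 under T cell centring. Over those 9 it was 0.42, but Ifna6 and Ifnab entered through the off-fucose array only, which favours positive differences. Over genes above background on both arrays, a setting added after seeing the data, it was 0.43. Ifna4 had 4.90 and 4.89 and Ifna1 had 4.03 and 3.96, both above background on both arrays with values close together. Interferon beta (Ifnb1) was at 2.45 on fucose and 2.56 off fucose, not above background on either. Ifng, the gamma interferon made by T cells and NK cells, went from 3.01 to 3.75 (0.74), against the direction of most interferon-stimulated genes. Ifna14 had 3.32 and 3.81, Ifnl3 3.81 and 4.28, and Ifnl2 3.76 and 4.19. Ifna6 and Ifnab were above background off fucose only, at least 1.05-fold and 1.18-fold higher there. Ifna1, Ifna4 and Ifnb1 were chosen after their values were seen.

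Genes that sense nucleic acids upstream of interferon went both ways. Of 19 measured genes 9 were negative (47.4%), with a median of 0.0000. Moderately lower were 4 (21.1%) and moderately higher 5 (26.3%), against 17.3% and 12.0% of the genes nearest to the members in mean intensity. Under T cell centring 4 were negative and the median was 0.29, and over the genes with log2 values averaging 5 or more it was -0.10. Besides Irf8, the genes farthest above 0 were Tlr3, the endosomal RNA receptor of cDC1 (2.95 and 4.96, 2.01), and Unc93b1, which carries such receptors to endosomes (4.74 and 6.38, 1.64). The kinase gene Ikbke, which phosphorylates interferon regulatory factors, had 7.58 and 6.52 (-1.06). Aim2, a DNA sensor gene, had 0.48 and the DNA receptor gene Tlr9 had 0.40. Negative regulators were lower in 11 of 12 genes (91.7%), against 57.6% of those nearest genes. Their median was -0.19, but 0.11 under T cell centring. Against 4.38% of the nearest genes, 1 regulator was 1.5-fold lower (8.33%). That gene was Nlrc3, at 6.92 and 6.16 (-0.76). Pias2 had -0.36, Pias1 -0.22, the phosphatase gene Ptpn6 -0.21 and Nlrx1 0.23. Socs3, a feedback inhibitor, had -0.19, but its dimmer probe set had 0.17.

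A longer list of interferon-stimulated genes outside the 41 was more mixed. Of 60 measured genes, 39 were negative (65.0%), 18 were moderately lower and 10 moderately higher (16.7%). Among the genes nearest to the members in mean intensity, 57.6% were negative, 17.3% moderately lower and 12.0% moderately higher. The longer list was above this background in each share, most clearly in that of moderately lower genes. The median of this list was -0.18, but 0.12 under T cell centring. Trim14, an adaptor of antiviral signalling, went from 4.60 to 3.80 (-0.80), and Cd274, which encodes the checkpoint ligand PD-L1, from 5.04 to 4.23 (-0.81). Higher off fucose were Ifi205 (2.86 and 5.68, 2.82), Tlr3 and Phf11a (4.03 and 5.29, 1.26), and Phf11d, above background off fucose only, was at least 1.19-fold higher. The guanylate-binding proteins and immunity-related GTPases, which interferon gamma induces strongly and which attack the vacuoles of pathogens, had larger negative differences than the 41 genes. Of 15 measured, 13 were negative (86.7%), with a median of -0.59, or -0.30 under T cell centring. At least 1.5-fold lower were 8 (53.3%) and at least 2-fold lower 4, against 4.38% and 0.530% of the nearest genes. Gbp9 had -1.66, Irgm2 -1.25, Iigp1 -1.12, Gbp10 -1.09, Igtp -0.85 and Gbp8 -0.82. Whether these lists differ from the 41 genes beyond array error could not be tested with 1 array per group.

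**Figure D3:**
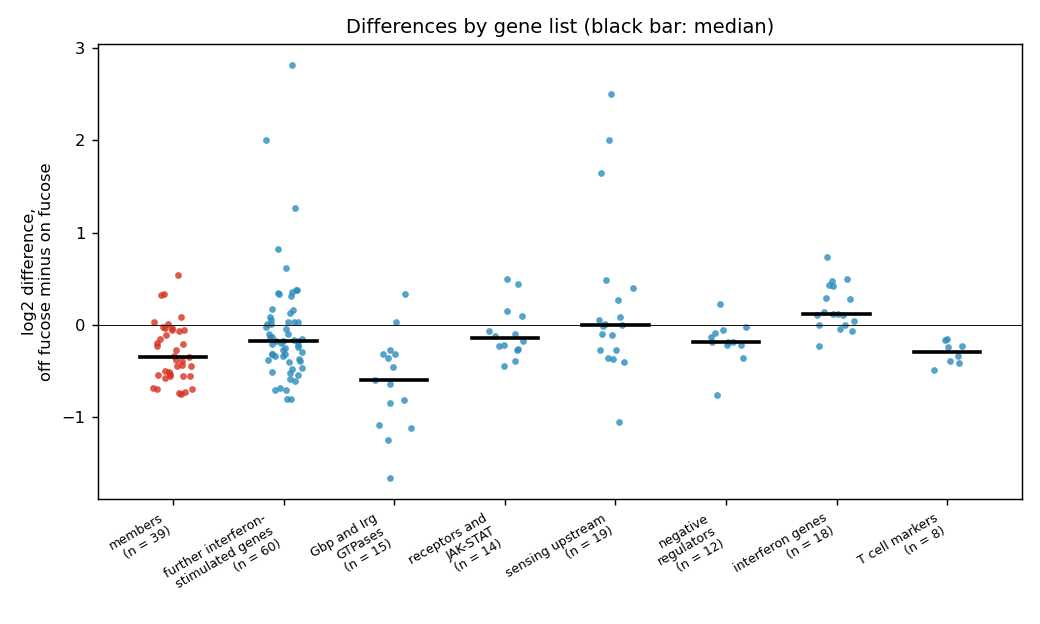
Log2 difference (off fucose minus on fucose) of each measured gene, by list, with the list median as a black bar and horizontal jitter for display only. The members have a median of -0.35, the Gbp and Irg GTPases -0.59, the further interferon-stimulated genes -0.18 and the T cell markers -0.29.

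The arrays also differed in their cell type markers. The label cDC1 was poorly borne out, since T cell markers were far brighter than cDC1 markers on both arrays. The 8 T cell markers had log2 values from 8.92 to 11.20 on fucose and from 8.72 to 11.05 off fucose. The median of the 13 cDC1 markers was 4.28 and 5.64. Xcr1, the chemokine receptor of cDC1, had 2.90 and 3.43 and Itgax, which encodes CD11c, had 3.83 and 3.86, little above background. The values of the interferon-stimulated genes are thus those of a mixed sample and not of cDC1 alone. Summed linear intensity over the 8 T cell markers was 11777 on fucose and 9658 off fucose. The 13 cDC1 markers summed to 701 and 1211, with 10 of them higher off fucose. Cd8a, which T cells also express, held 332 and 297 of these sums, and the other 12 markers summed to 369 and 913. The 11 markers of granulocyte precursors summed to 119 and 2992, all 11 higher, with Elane at 4.11 and 9.48. The 6 erythroid markers summed to 69.8 and 490.3 and the 10 of monocytes and macrophages to 1479 and 2254, or to 90.2 and 359 without Ly6c2. The 9 NK cell markers summed to 590 and 473, and the 7 B cell markers to 81.5 and 73.0. The 8 markers of type 2 and all dendritic cells summed to 1281 and 963, but Cd7, which T cells also express, held 1213 and 845 of this. The other 7 summed to 68.0 and 118, with 6 of them higher off fucose. The sums without the brightest gene were added after seeing the data. The 9 markers of plasmacytoid dendritic cells, the main producers of type I interferon, had a median difference of -0.15 and sums of 679 and 667, most of it from Bst2, and their defining marker Siglech was not above background on either array. Xist, expressed from the X chromosome of females, was at least 42.0-fold lower off fucose, and the 3 measured Y-linked genes were higher there, with Uty at 2.14 and 5.26. Gfus had 4.89 and 4.50, above background on both arrays although both are labelled Fx-/-. Whether its probes lie inside the deleted sequence is not known here, so these values do not check the genotype. The part of these cell type and sex differences in the values of the interferon-stimulated genes was not tested.

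**Figure D4:**
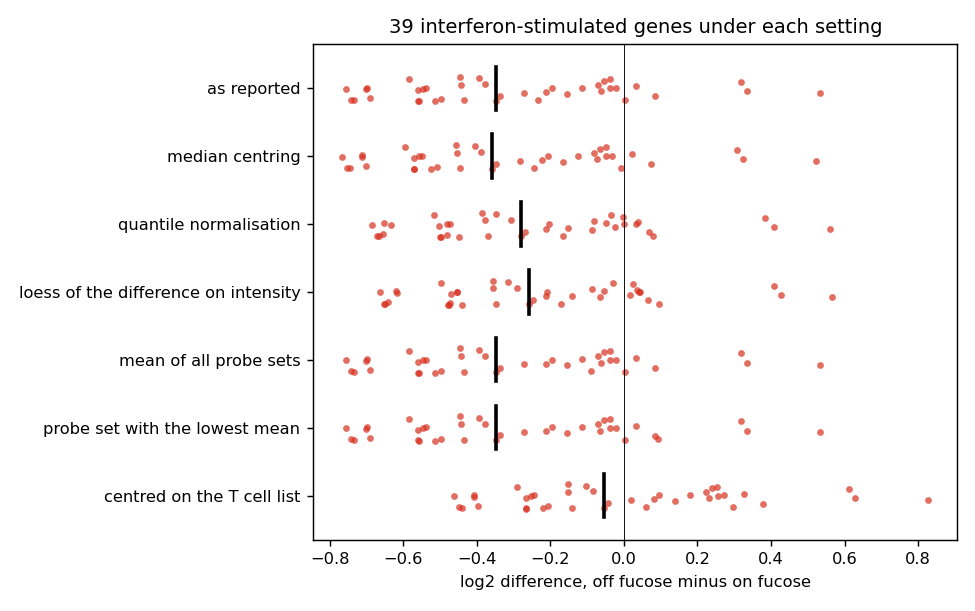
Log2 difference (off fucose minus on fucose) of the 39 measured interferon-stimulated genes as reported and under 6 other settings, with the median as a black bar and vertical jitter for display only. Between 29 and 34 genes are negative in the first 6 rows, and 21 are negative under T cell centring, where the median is -0.05.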

How the data were processed

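Gene expression was measured on 1 array per group. The deposited values are linear intensities per probe set. The submitters' processing notes name RMA as the tool the authors used. Its version and settings, and the genome build, are not given in the sources used here. The linear scale was read from the values, which ran from 2.74 to 9512, and the log2 of the deposited values was taken. Of 41345 probe sets, 23521 had 1 gene symbol in the platform annotation, 1814 had several and 16010 were not listed there. All 39 measured members matched a RefSeq gene table (GRCm38.p6) by Entrez ID.

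On fucose was subtracted from off fucose for each gene. With 1 array per group no test was run. Background was the 95th percentile of olfactory receptor genes on each array, and a gene above it on 1 array only is given as a bound against it. Genes of like intensity were the 200 nearest in mean log2 intensity outside the 41, with a robust SD of 1.4826 times the median absolute deviation. The expression filter was the median of all genes (2.88), passed by 11090 genes and 36 members. The scripts were tested on data with known shifts (Python 3.11.15, numpy 2.4.6, pandas 2.3.3, statsmodels 0.14.6).

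The members, gene lists and settings were chosen with earlier results of these data known. Named were all measured members, all measured genes of the receptor and regulatory factor lists, the 6 genes above background with the largest differences of each other pathway list, and a few cell type markers. Alternatives were other scalings, probe set rules, filters, thresholds and motif settings.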

Additional observations from a re-analysis of the deposited data

How the results depend on the processing

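No paired analysis was possible because there was a single array on each side, which also means that none could be omitted. The median difference of the members stayed within 0.1 of -0.35, and their 33 negative differences within 1.5 times, under median centring, quantile normalisation, loess and both other probe set rules. Samd9l, Parp9, Bst2, Ifi35, Rnf213 and Sp100, all within 0.24 of 0, changed sign in at least 1 of these. Moderately lower were 18 members under quantile normalisation and 17 under loess. Under median centring and both other probe set rules there were 21, as reported.

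Under T cell centring, which subtracts 1 value from every difference, the members had a median of -0.053, with 21 negative, and 12 changed sign. Of the members, 6 were moderately lower, 0 at least 1.5-fold lower and 3 at least 1.5-fold higher. All genes had 84 and 2443 past 1.5-fold, against 505 and 711. The medians of receptors and JAK-STAT (0.14), negative regulators (0.11), further interferon-stimulated genes (0.12) and interferon regulatory factors (0.13) turned positive. Interferon genes had 0.41, upstream sensing 0.29 and the Gbp and Irg list -0.30.

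At a threshold of 2-fold, 0 members were lower, and at the moderate threshold 21 were lower and 2 higher. Filters leave fewer genes. At a mean of at least 5, 21 of 24 members were negative, all genes had 207 lower and 200 higher, and upstream sensing had -0.10, the Gbp and Irg list -0.97 and regulatory factors -0.35. At the 67th percentile, 385 genes were higher, and these lists had -0.10, -0.75 and -0.35. At the median of all genes, interferon genes had 0.36 and the Gbp and Irg list -0.82. Above background on both arrays, a setting added after seeing the data, these had 0.43 and -0.82. An ISRE core followed by CT was found for 6 member genes in place of 13. For dim genes, signal close to background limits what a difference can show.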
